A study of Mus musculus with 6 samples.

Results

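The genes of oxidative phosphorylation were followed in livers of mice that lack the p21-activated kinase Pak4 in hepatocytes and in livers of their floxed controls. Members were the protein-coding genes of the deposited table whose symbols name a subunit of complexes I to V or a close relative (symbols that begin with Nduf and a, b, c, s or v, the 4 Sdh genes, symbols that begin with Uqcr, Cox4 to Cox8 or Atp5) together with the 13 protein-coding genes of the mitochondrial genome. They came to 108 of the 45777 genes in the table, of which 95 are encoded in the nucleus and 13 in mitochondrial DNA. The Pak4_KO group held 3 liver samples that carry an Alb-Cre transgene and floxed Pak4 alleles. The WT group held 3 liver samples with the same floxed Pak4 alleles and no Cre. The mice of both groups were C57BL/6 and 10 weeks old. The albumin promoter drives Cre in hepatocytes, and the other cells of the liver also contributed RNA to each library. Which of these other cells kept an intact Pak4 gene is not given by the labels. RNA of the whole liver was made into strand-specific libraries by selection of polyadenylated RNA and sequenced, and the reads were counted per gene. The labels number 3 replicates per group without naming the animals, so p-values measure only the spread between these samples, which may be technical.

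Oxidative phosphorylation passes electrons from NADH (complex I) or succinate (complex II) through ubiquinone, complex III and cytochrome c to oxygen at complex IV, and complexes I, III and IV pump protons across the inner mitochondrial membrane. Complex V, the ATP synthase, uses the return of these protons to make ATP, which in hepatocytes pays for gluconeogenesis and the urea cycle. All complexes except complex II are built from subunits of both genomes: the mitochondrial genome holds the hydrophobic core subunits, and the nucleus encodes the others, several complex IV subunits from a liver or widespread isoform gene and a heart, muscle or testis isoform gene.

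The promoters of nuclear members are shown first because these genes are known in mammals as shared targets of NRF1 and GABP, transcription factors of mitochondrial gene expression. RefSeq windows of 300 bases around the start site (build GRCm38.p6) were held for 77 of the 108 members, in 82 windows, and were searched on both strands. The NRF1 motif (GCGC, any base, then TGCGC) was present in 24.4% of member windows, against 8.59% of the 15037 windows of tested genes and 4.60% of all 32851 windows. The ETS motif CCGGAAG, which GABP binds, was present in 23.2% of member windows and 15.4% of windows of tested genes. For the YY1 motif AAGATGGC these shares were 13.4% and 3.997%. For the oestrogen-related receptor motif TCAAGGTCA they were 2.44% and 0.273%, with only 2 of the 82 member windows holding it. The CCAAT box (CCAAT) was found in 42.7% of member windows against 37.8%, and the TATA box (TATAAA) in 11.0% against 8.79%. Below, the 250 bases before the start are given for Cox6b1 and Cox7a1, the only members within 20 Mb of Pak4 and those with the smallest p and the largest fold change, and for Cox6a1 and Sdha, in which the NRF1 motif occurs more than once. Each runs 5′ to 3′ in the direction of the gene, with capitals for the motifs named above, and no 2 different motifs overlap in these windows.
Cox6b1 (chr7:30626115-30626364, minus strand): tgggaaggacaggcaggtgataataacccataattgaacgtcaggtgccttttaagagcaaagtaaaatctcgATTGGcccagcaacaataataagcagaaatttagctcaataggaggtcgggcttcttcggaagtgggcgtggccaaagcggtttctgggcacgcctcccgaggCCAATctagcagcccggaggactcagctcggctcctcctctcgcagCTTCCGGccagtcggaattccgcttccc
Cox7a1 (chr7:30183921-30184170, plus strand): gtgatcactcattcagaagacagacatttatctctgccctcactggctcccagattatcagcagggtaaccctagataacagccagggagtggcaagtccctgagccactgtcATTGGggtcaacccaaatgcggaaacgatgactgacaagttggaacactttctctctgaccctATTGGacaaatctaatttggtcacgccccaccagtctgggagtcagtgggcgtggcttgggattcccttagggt
Cox6a1 (chr5:115348959-115349208, minus strand): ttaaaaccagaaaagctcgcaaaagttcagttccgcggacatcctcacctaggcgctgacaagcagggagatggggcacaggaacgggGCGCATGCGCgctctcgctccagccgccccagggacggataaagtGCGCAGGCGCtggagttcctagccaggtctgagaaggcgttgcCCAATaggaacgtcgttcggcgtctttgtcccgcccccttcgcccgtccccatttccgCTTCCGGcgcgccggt
Sdha (chr13:74350241-74350490, minus strand): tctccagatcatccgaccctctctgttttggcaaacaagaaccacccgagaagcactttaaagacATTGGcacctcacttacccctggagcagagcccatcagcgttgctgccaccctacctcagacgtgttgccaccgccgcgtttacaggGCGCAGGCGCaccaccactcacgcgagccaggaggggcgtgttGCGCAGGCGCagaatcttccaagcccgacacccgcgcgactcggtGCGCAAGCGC
Cox6b1 held CCGGAAG on the minus strand and CCAAT on either strand, while Cox7a1, an isoform gene of heart and muscle, held only CCAAT on the minus strand, in 2 places. Cox6a1 held the NRF1 motif in 2 places and Sdha in 3. A match says only that these letters occur in the window.

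Pak4 itself was lower in Pak4_KO livers: it had 1.37, 2.24 and 1.900 CPM (reads scaled to a fixed library total with TMM factors) in the Pak4_KO libraries, against 5.93, 7.15 and 6.44 CPM in the WT libraries. The difference was -1.82 on the log2 scale (SE 0.24), with an adjusted p of 0.0169 in edgeR's quasi-likelihood test. Libraries held 39603272 to 52521400 counted reads, of which nuclear members took 0.738% to 0.885% and mitochondrially encoded members 1.41% to 1.79%. The 7 hepatocyte markers were all detected, and their levels were summed in TPM (a share of all transcripts, scaled by gene length to a fixed total). The sum was 46785 to 52221 TPM in Pak4_KO libraries and 38842 to 47675 TPM in WT libraries. Most of it was Alb, with means of 30971 TPM in Pak4_KO and 23490 TPM in WT livers. On the log2 scale Alb lay at 0.31 and Ttr at 0.02. Below 0 were Serpina1c at -0.39, Cyp2e1 at -0.29, Hnf4a at -0.29, Apoa1 at -0.13 and Cps1 at -0.02. The 5 neutrophil markers summed to 57.1 to 66.4 TPM in Pak4_KO libraries and 81.9 to 139 TPM in WT libraries, without overlap, and 0 of the markers of any of the 11 cell types passed the test. The part of cell composition in the results below was not tested. In bulk liver, fewer cells of a type and less RNA per cell cannot be told apart.

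No member of oxidative phosphorylation passed the test between Pak4_KO and WT livers. Of the 108 members, 101 had enough reads to be tested, and edgeR called 0 of them at an adjusted p under 0.05, where 76 of the 16197 tested genes were called (0.469%; 0.265% higher and 0.204% lower). At an unadjusted p under 0.05 there were 4 members, all higher in Pak4_KO livers (Cox6b1, Ndufaf5, Ndufaf4 and Ndufs1), or 3.96% of those tested, below the 8.20% of all tested genes (4.51% higher and 3.69% lower). DESeq2, limma-voom and limma on log2(TPM + 1) also called 0 members.

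Small positive differences were common among the nuclear members. Here and below, differences are edgeR log2 fold changes of TMM-scaled counts unless another setting is named. This holds also where levels are given in TPM. The log2 fold change of Pak4_KO over WT was positive for 75 of 88 tested nuclear members, with a median of 0.09, and for 8 of 13 mitochondrially encoded members, with a median of 0.01. The nuclear median was 0.035 without WT 1, with 62 of 88 positive, and 0.054 without Pak4_KO 2, with 57 of 88 positive; it was 0.14 without Pak4_KO 3 and 0.15 without WT 3. Of all tested genes 50.7% were positive, with a median of 0.0045. The CPM of the groups did not overlap for 16 members (15.8% of those tested, against 13.4% of all tested genes): 15 were higher in every Pak4_KO library than in any WT library (7.35% of all tested genes) and 1, Ndufaf3, was lower in every one (6.06%). Both the 75 and the 15 include Cox7a1, which passed the filter on low values through the Pak4_KO group. The 95% interval of the fold change lay within 1.5-fold in either direction for 79 of 88 nuclear members and 7 of 13 mitochondrially encoded members, and within 2-fold for 100 of the 101 members, Cox7a1 being the exception.

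**Figure D1:**
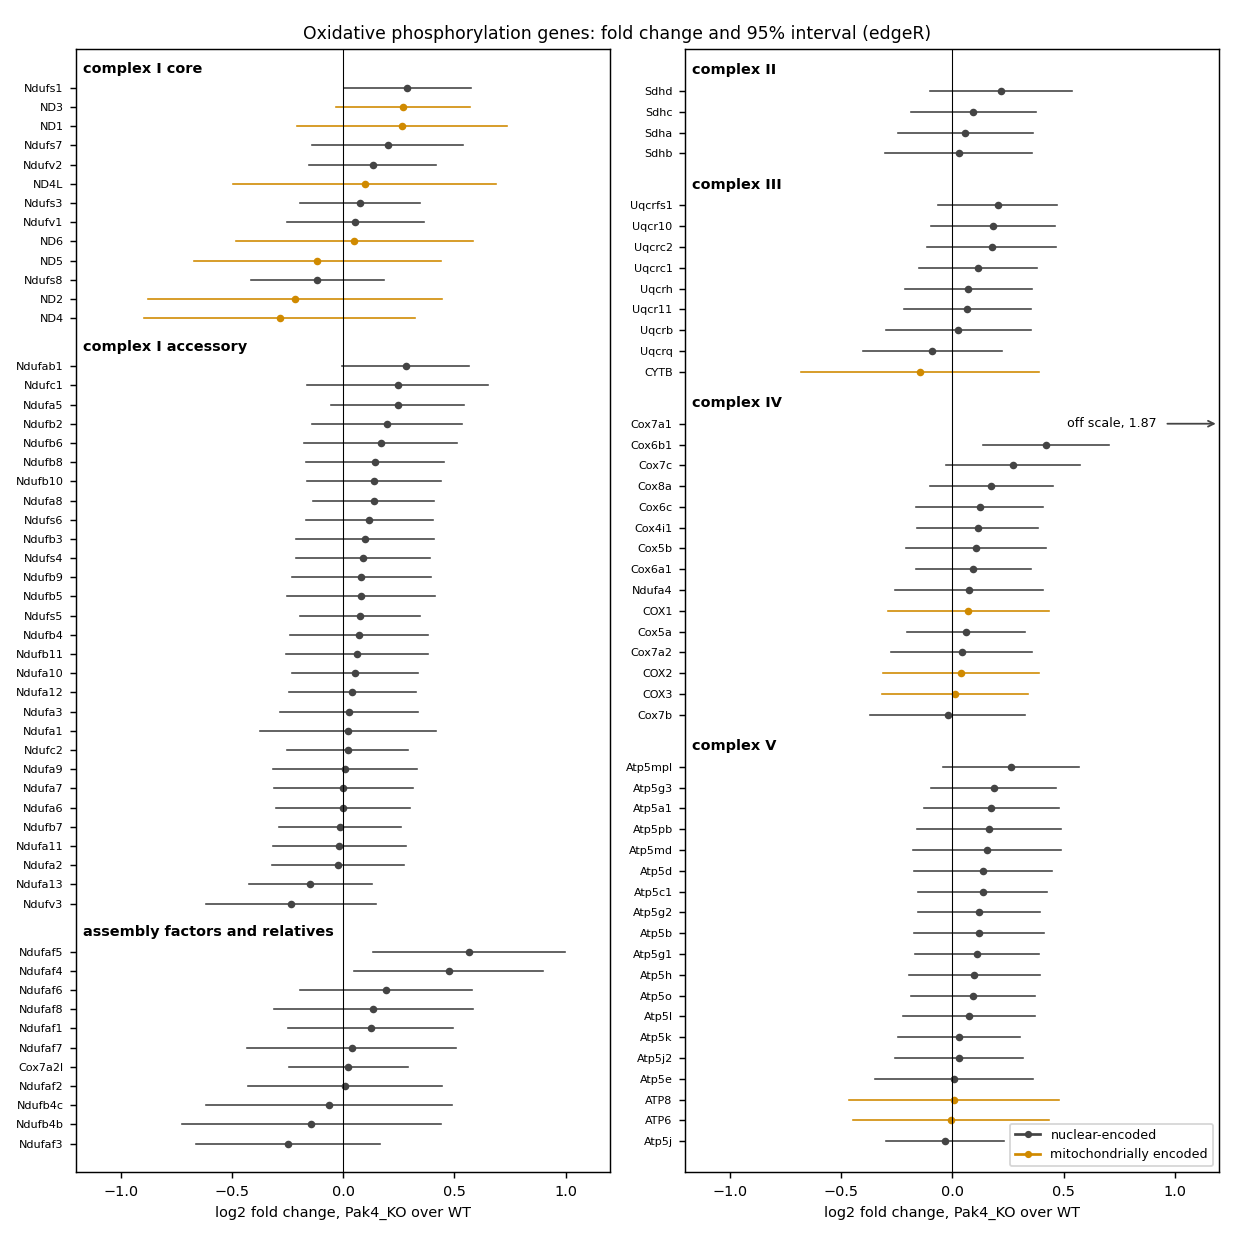
Log2 fold change of Pak4_KO over WT (x axis) for 100 of the 101 tested members, grouped by complex, with the 95% interval as a line; grey marks nuclear-encoded and orange mitochondrially encoded genes, and Cox7a1 at 1.87 is off the scale. Most points lie slightly right of 0, and intervals are wider for the mitochondrially encoded genes, except ND3, than for most nuclear genes.

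Among the nuclear core subunits of complex I, which carry NADH oxidation and the iron-sulfur chain, 6 of 7 had a positive difference. Ndufs1, the large iron-sulfur subunit of the NADH-oxidising arm, had 86.6, 82.8 and 87.9 TPM in Pak4_KO libraries, against 61.9, 63.5 and 72.8 TPM in WT libraries. Every Pak4_KO library was above every WT library. The group difference was 0.29 on the log2 scale (SE 0.12), with an adjusted p of 0.603 in edgeR. Ndufs7, the iron-sulfur subunit next to the ubiquinone site, had 47.99, 35.1 and 37.99 TPM in Pak4_KO and 37.7, 30.1 and 34.2 TPM in WT libraries, which overlapped. Ndufs8 had the only negative difference of these 7, at -0.12.

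The 29 accessory subunits of complex I, which surround and stabilise the core, spread from -0.23 to 0.28 with a median of 0.07; 23 were positive and 6 negative. Ndufab1, which is also the mitochondrial acyl carrier protein, had 57.9, 50.8 and 57.5 TPM in Pak4_KO libraries, against 39.5, 42.9 and 41.7 TPM in WT libraries. No library overlapped, and the difference of 0.28 (SE 0.12) had an adjusted p of 0.618. Ndufa5 had 76.2, 70.98 and 74.5 TPM in Pak4_KO and 55.9, 63.7 and 57.8 TPM in WT libraries, also without overlap, with a difference of 0.24 (adjusted p = 0.699). Ndufa8 was the remaining one of the 3 accessory subunits whose CPM did not overlap, at 0.14. These 3 were 10.3% of the accessory subunits, against 13.4% of all tested genes in either direction and 7.35% higher. In the other direction Ndufv3 had 88.1, 76.2 and 72.8 TPM in Pak4_KO and 79.8, 108 and 86.2 TPM in WT libraries and a difference of -0.23 (adjusted p = 0.807), which was -0.10 without the WT 2 library. Ndufa13 lay at -0.15, Ndufc1 at 0.25 and Ndufb2 at 0.20, and the CPM of the groups overlapped for each. In TPM, Ndufc1 had 77.6, 62.04 and 54.98 in Pak4_KO and 49.6, 54.02 and 51.7 in WT libraries, and Ndufb2 had 66.7, 61.8 and 62.7 in Pak4_KO and 45.8, 55.6 and 56.8 in WT libraries, both without overlap. The most abundant accessory subunits were Ndufb9, at 348 ± 15.8 TPM in Pak4_KO and 311 ± 31.4 TPM in WT livers, and Ndufa6, at 229 ± 14.2 TPM and 216 ± 15.3 TPM (SD, n = 3 libraries each). Neither passed the test, with log2 differences of 0.08 and -0.00.

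Complex II, succinate dehydrogenase, is wholly nuclear-encoded and also belongs to the tricarboxylic acid cycle; its 4 subunits lay between 0.03 and 0.22. Sdhd, a membrane anchor, had 199, 203 and 218 TPM in Pak4_KO libraries, against 146, 183 and 174 TPM in WT libraries, without overlap. Its difference of 0.22 (SE 0.14) had an adjusted p of 0.764. The other anchor Sdhc had 149, 142 and 136 TPM against 123, 124 and 132 TPM, the flavoprotein Sdha 221, 179.6 and 220.0 TPM against 178, 184 and 199 TPM, and the iron-sulfur subunit Sdhb 216, 211 and 205 TPM against 170.3, 199.9 and 214 TPM. The groups of Sdha and Sdhb overlapped on both scales, and Sdhc overlapped in CPM.

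In complex III, 7 of 8 nuclear subunits had a positive difference and 3 were higher without overlap in CPM, as were 7.35% of all tested genes. The Rieske iron-sulfur protein Uqcrfs1 had 177, 175 and 181 TPM in Pak4_KO libraries, against 141, 143 and 152 TPM in WT libraries, a difference of 0.20 (SE 0.12, adjusted p = 0.724). The small subunit Uqcr10 had 239, 260.1 and 250.02 TPM in Pak4_KO and 199.7, 211 and 213 TPM in WT libraries, and the core protein Uqcrc1 had 209.8, 194 and 211 TPM and 175, 177 and 184 TPM. Both were higher in every Pak4_KO library than in any WT library. Their group differences were 0.18 and 0.11 on the log2 scale, with adjusted p-values of 0.785 and 0.886 in edgeR. The other core protein Uqcrc2 lay at 0.18; it had 167, 172 and 174 TPM in Pak4_KO and 135, 137 and 156 TPM in WT libraries, without overlap, but its CPM overlapped. Uqcr11, the most abundant, lay at 0.07 and Uqcrq at -0.09.

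Cox6b1, the widespread form of the complex IV subunit that faces the intermembrane space, had the smallest p of all 101 members. It had 507, 499 and 460.2 TPM in Pak4_KO libraries, against 346, 345 and 345 TPM in WT libraries. The WT libraries lay within 1 TPM of each other and every Pak4_KO library was above them. In CPM it had 138, 141 and 117 in Pak4_KO and 94.9, 101 and 100.1 in WT libraries, a log2 difference of 0.42 (SE 0.12, 95% interval 0.14 to 0.71), with an unadjusted p of 0.00854 and an adjusted p of 0.322 in edgeR. Over the alternatives run, its adjusted p was 0.115 to 0.783 and its difference 0.37 to 0.50. Cox6b1 (chr7:30616971-30626114, GRCm38.p6) lies 2.06 Mb from Pak4 (chr7:28558819-28598184), and whether its difference has to do with the stretch of chromosome around the floxed locus was not tested.

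The other complex IV subunits of liver had smaller differences. Cox7c had 493, 527 and 487 TPM in Pak4_KO libraries, against 374, 381 and 424 TPM in WT libraries, without overlap, with a difference of 0.27 (SE 0.13, adjusted p = 0.657). Reads of 4 pseudogene copies of Cox7c came to 7.15% of its own reads. Cox8a had 355, 329 and 318 TPM in Pak4_KO and 279.7, 279.6 and 281 TPM in WT libraries; its TPM did not overlap but its CPM did, with a difference of 0.17 (adjusted p = 0.8002). Cox4i1, the common form of subunit 4 and the most abundant nuclear subunit of complex IV, had 629 ± 16.8 TPM in Pak4_KO and 549 ± 30.6 TPM in WT livers (SD, n = 3 each) and a difference of 0.11. Ndufa4, first assigned to complex I and now counted with complex IV, had 571 ± 36.4 TPM and 514 ± 61.03 TPM (SD, n = 3 each) and a difference of 0.07.

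The isoform genes of complex IV sorted by tissue in both groups. The liver or common isoforms Cox4i1, Cox6a1, Cox6b1, Cox7a2, Cox7b and Cox8a were all at 153 TPM or more in every library. Of their heart, muscle, lung and testis relatives, Cox6b2, Cox7b2, Cox8b and Cox8c had 0 reads in all 6 libraries. Cox6a2 had 6 reads in 1 Pak4_KO library and 0 in the others, and Cox4i2 had 4 reads in 1 WT library and 0 in the others. Ndufa4l2, a relative of Ndufa4 known to be induced by low oxygen, had 6, 5 and 6 reads in Pak4_KO and 8, 13 and 1 reads in WT libraries. These 7 genes were not tested.

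Cox7a1, the heart and muscle form of subunit 7a, was the exception among these isoforms. It had 24, 29 and 40 reads (2.65, 2.77 and 3.94 TPM) in Pak4_KO libraries, against 6, 0 and 19 reads (0.5905, 0 and 1.65 TPM) in WT libraries. Every Pak4_KO library was above every WT library, and 1 WT library had no read of it. The fitted difference of 1.87 (SE 0.84, 95% interval -0.05 to 3.79) had an unadjusted p of 0.0546 and an adjusted p of 0.622, and over the alternatives it ranged from 1.29 to 3.21 with an adjusted p of 0.228 to 0.937. It was the only tested member under 10 reads in some library, so it passed the filter on low values through the Pak4_KO group and a difference in that direction was favoured. Its level stayed far below that of the liver isoform Cox7a2, which had 179.6, 193 and 165 TPM in Pak4_KO and 153, 160.4 and 177 TPM in WT libraries. Cox7a1 (chr7:30184171-30186030) lies 1.63 Mb from Pak4. Of 11 skeletal and heart muscle markers, Acta1, Myh1, Myh6 and Ckm had 0 TPM in every library and the list summed to at most 0.175 TPM in Pak4_KO and 0.134 to 0.412 TPM in WT libraries. The white fat gene Cfd had 0.4097, 5.51 and 5.18 TPM in Pak4_KO and 0, 0.147 and 0 TPM in WT libraries, while Adipoq and Lep had 0 TPM in every library. Of the same 5 white fat markers, Plin1 and Retn had 0 TPM in every library except WT 3, with 0.112 and 0.106 TPM. Of the brown fat markers, which include Cox7a1 itself, Ucp1, Cidea and Dio2 were at most 0.165 TPM in Pak4_KO and 0.172 TPM in WT libraries, and Elovl3 had 82.2, 87.2 and 77.98 TPM in Pak4_KO and 201, 47.01 and 134 TPM in WT libraries. Ppargc1a, also on the brown fat list, had 12.3, 3.27 and 3.17 TPM in Pak4_KO and 2.398, 3.98 and 1.08 TPM in WT libraries. Its groups overlapped, and its log2 difference was 1.25. The part of fat cells in the level of Cox7a1 was not tested.

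**Figure D2:**
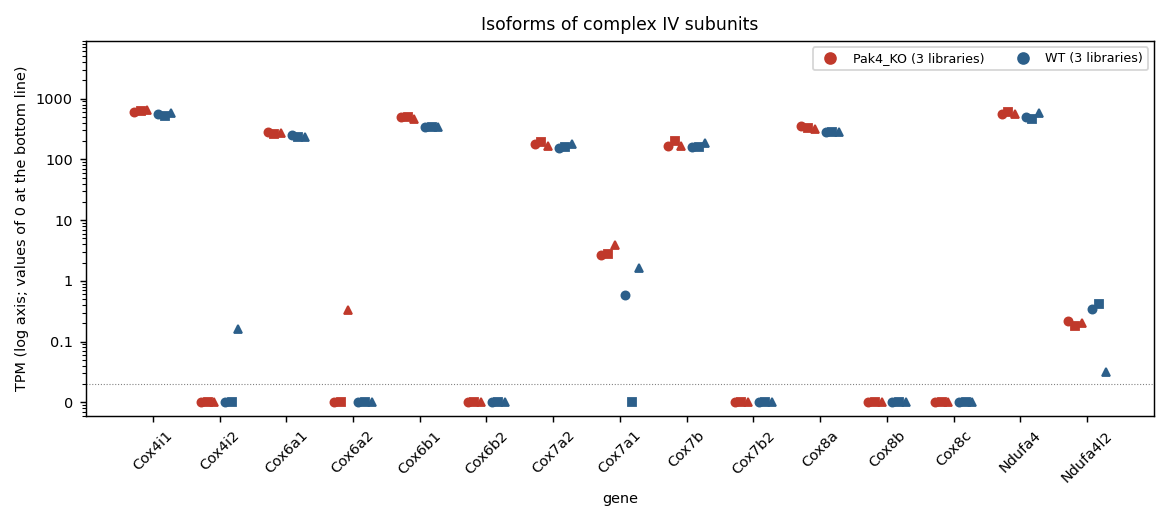
TPM of complex IV isoform genes on a log axis (values of 0 on the bottom line), with 3 Pak4_KO libraries in red left of 3 WT libraries in blue; circle, square and triangle are replicates 1, 2 and 3. The liver or common isoforms sit at 153 TPM or more in both groups, Cox7a1 sits between 0 and 3.94 TPM and is higher in Pak4_KO, and the other tissue isoforms sit at or near 0.

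In complex V, 16 of 17 nuclear subunits had a positive difference, with a median of 0.12 and a range of -0.03 to 0.26. The catalytic subunit Atp5b, the most abundant nuclear member of all, had 944, 881 and 959 TPM in Pak4_KO libraries, against 808, 781 and 831 TPM in WT libraries. The alpha subunit Atp5a1, its partner in the catalytic head, had 648, 661 and 675 TPM in Pak4_KO and 532, 549.7 and 578 TPM in WT libraries. Both were above all WT libraries in 3 of 3 Pak4_KO libraries, with differences of 0.12 and 0.17 and adjusted p-values of 0.894 and 0.820 in edgeR. The c-ring subunit is made from 3 genes. Atp5g3 had 291, 332 and 338 TPM in Pak4_KO and 260.0, 271 and 267 TPM in WT libraries, without overlap, at 0.18 (adjusted p = 0.783). Atp5g1 lay at 0.11 and Atp5g2 at 0.12, both with overlap in CPM, and reads of 2 pseudogene copies of Atp5g2 came to 19.4% of its own reads. Atp5mpl, a small membrane subunit, had 221, 232 and 218 TPM in Pak4_KO and 171, 160.4 and 194 TPM in WT libraries. Its CPM overlapped, and its difference was 0.26 (SE 0.13, adjusted p = 0.677 in edgeR). The stalk subunits Atp5c1 and Atp5pb lay at 0.14 and 0.16, and the membrane subunit Atp5md at 0.16.

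The symbol rule also took 8 assembly factors of complex I, which build the enzyme and are not part of it. An unadjusted p under 0.05 was reached by 2 of them (25%), both higher in Pak4_KO livers, where 4.51% of all tested genes were higher. Ndufaf4 had 17.4, 26.8 and 26.1 TPM in Pak4_KO libraries, against 15.6, 14.6 and 17.6 TPM in WT libraries. The Pak4_KO 1 library lay inside the WT range and the other two Pak4_KO libraries above it, with a difference of 0.47 (SE 0.18, adjusted p = 0.540). Ndufaf5, known as an arginine hydroxylase that acts on Ndufs7, had 5.47, 5.63 and 4.54 CPM in Pak4_KO libraries, against 3.304, 3.81 and 3.44 CPM in WT libraries. These did not overlap, and the difference was 0.57 (SE 0.19, adjusted p = 0.429). In TPM the same gene had 3.56, 4.37 and 3.59 in Pak4_KO and 3.27, 3.91 and 3.03 in WT libraries, which overlapped, and its difference over the alternatives ranged from 0.14 to 0.66. Ndufaf3, the only member lower in every Pak4_KO library in CPM, had 4.62, 3.94 and 3.999 CPM in Pak4_KO and 4.94, 5.34 and 4.63 CPM in WT libraries, a difference of -0.25 (SE 0.18, adjusted p = 0.809). In TPM its groups overlapped. Cox7a2l is known as a supercomplex assembly protein, and its function in these mice was not measured. It had 155, 172 and 167 TPM in Pak4_KO and 161, 152 and 147 TPM in WT libraries and a difference of 0.02. The Ndufb4 copies Ndufb4b and Ndufb4c share sequence with Ndufb4, so their differences of -0.14 and -0.06 are uncertain.

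The 13 mitochondrially encoded genes span a wide range of levels in liver. The catalytic subunit COX1 had 14062, 12888 and 14180.3 TPM in Pak4_KO libraries, against 13463, 12304 and 11209 TPM in WT libraries, and held 69.4% to 72.9% of all reads of the 13 genes. COX3, a core subunit of complex IV, had 5398, 5556 and 5559 TPM in Pak4_KO and 5521, 5322 and 4656 TPM in WT libraries, and the copper subunit COX2 had 1467, 1302 and 1482 TPM and 1483, 1384 and 1044 TPM. ND1 of complex I came next, at 819 ± 175 TPM in Pak4_KO and 641 ± 139.9 TPM in WT livers (SD, n = 3 each). CYTB, the haem-carrying core of complex III, had 518 ± 143 TPM and 538 ± 134 TPM, the proton channel subunit ATP6 498 ± 109 TPM and 471 ± 108 TPM, and ND3 529 ± 69.6 TPM and 414 ± 58.5 TPM. Within each group CYTB, ATP6 and ND3 overlapped in range, as did ND1 and CYTB. ND5 had 302 ± 84.5 TPM and 307 ± 77.4 TPM, ND4 251 ± 77.2 TPM and 287 ± 83.99 TPM, ATP8 134 ± 35.3 TPM and 125 ± 26.1 TPM, and ND2 106 ± 37.5 TPM and 115 ± 34.4 TPM. ND5 and ND4 overlapped in range within each group, and so did ATP8 and ND2. ND6, the only one of the 13 encoded on the light strand, had 44.2 ± 10.9 TPM and 39.9 ± 10.5 TPM, and ND4L had 11.02 ± 2.65 TPM and 9.66 ± 1.25 TPM. COX1 was 129-fold the level of ND2 in Pak4_KO livers and 107-fold in WT livers, by mean TPM. ATP8 and ATP6, ND4L and ND4, and ND5 and ND6 overlap on the genome, so their separate counts are uncertain.

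None of the 13 passed the test between Pak4_KO and WT livers. Every one of them overlapped between the groups, edgeR called 0, and 0 had an unadjusted p under 0.05. ND3 had the smallest p, with 479.5, 498 and 608 TPM in Pak4_KO and 481, 391.9 and 370.1 TPM in WT libraries and a difference of 0.27 (SE 0.13, adjusted p = 0.664). The largest differences were -0.29 for ND4 (SE 0.27, adjusted p = 0.871), 0.27 for ND3, 0.26 for ND1 and -0.22 for ND2, and COX1, COX2, COX3, ATP6 and ATP8 lay between -0.01 and 0.07. The median of the 13 turned to -0.11 without Pak4_KO 3 and -0.09 without WT 3, and it was 0.02 without Pak4_KO 1, 0.08 without Pak4_KO 2, 0.08 without WT 1 and 0.09 without WT 2.

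The spread of these genes was between libraries of the same group. The Pak4_KO 2 and WT 3 libraries were the lowest pair for 9 of the 13 genes (ND1, ND2, ND4, ND4L, ND5, CYTB, COX2, ATP6 and ATP8) and for both mitochondrial rRNAs. ND2, a proton-pumping subunit of complex I, had 121, 63.1 and 133 TPM in Pak4_KO and 124, 144 and 77.2 TPM in WT libraries, and ND4 had 285, 163 and 305 TPM and 335, 337 and 190.3 TPM. The small-subunit rRNA mt-Rnr1 had 918, 369.8 and 979 TPM in Pak4_KO and 1030.5, 1143 and 482 TPM in WT libraries. Between the highest and the lowest library, ND2 spanned 1.23 and ND4 1.09 on the log2 scale, whereas COX1 spanned 0.23, COX3 0.22 and COX2 0.42. The same Pak4_KO 2 library had the highest CPM of 44 of the 88 tested nuclear members, and WT 1 had the lowest of 50. The rRNAs lack the long poly(A) tail that the libraries select for, and the part of RNA quality or tissue sampling in this spread was not tested. With both Pak4_KO 2 and WT 3 left out, an alternative added after seeing the data, the median of the 13 was -0.04, that of the nuclear members 0.10, and 0 members were called.

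**Figure D3:**
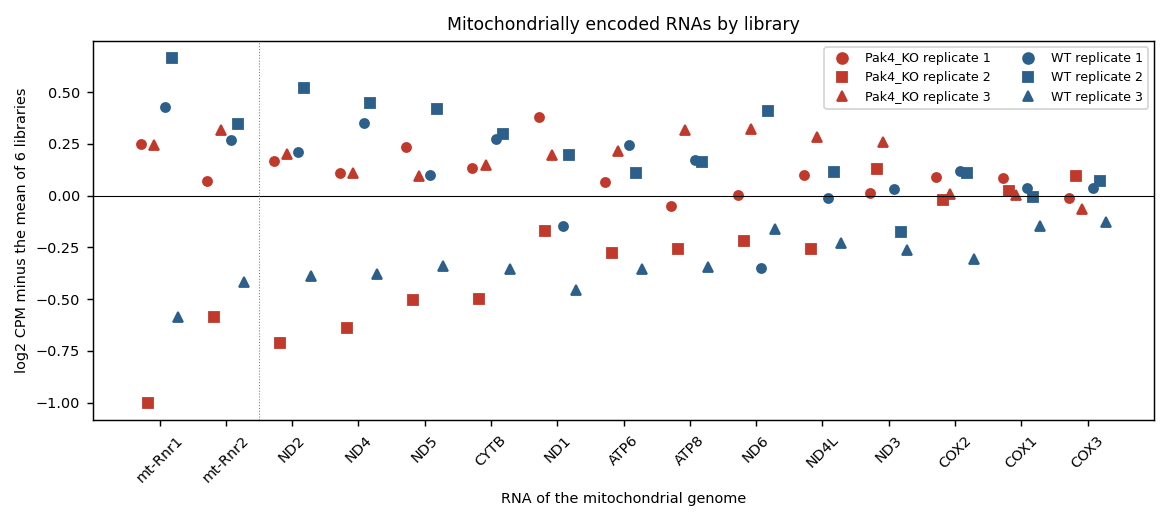
Log2 CPM of each mitochondrially encoded RNA in each library minus the mean of the 6 libraries (y axis), Pak4_KO in red left of WT in blue, with circle, square and triangle for replicates 1, 2 and 3; the 2 rRNAs stand left of the dotted line. The red squares (Pak4_KO 2) and blue triangles (WT 3) lie lowest for both rRNAs and 9 of the 13 genes, and COX1 and COX3 vary least.

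Summed over a complex, nuclear members were somewhat higher in Pak4_KO livers in TPM. The 95 nuclear members together had 15908, 16106 and 15635 TPM in Pak4_KO libraries, against 13506, 13513 and 14710.4 TPM in WT libraries, and every Pak4_KO library was above every WT library. The same held for the nuclear subunits of each complex. Complex I had 3825, 3781 and 3634 TPM in Pak4_KO and 3285, 3271 and 3596 TPM in WT libraries, and complex II had 785, 736 and 779 TPM and 617, 690.3 and 718 TPM. Complex III had 1869.7, 1913 and 1859.8 TPM in Pak4_KO and 1594, 1633 and 1759 TPM in WT libraries, and complex IV 4038, 4124 and 3899 TPM and 3365, 3259 and 3623 TPM. Complex V had the largest nuclear sum, with 5115, 5263 and 5187 TPM in Pak4_KO and 4388, 4408 and 4767 TPM in WT libraries. The narrowest gaps were those of complexes I and II, where the WT 3 library came close to the lowest Pak4_KO library. The 13 mitochondrially encoded genes summed to 24375, 22179 and 24972 TPM in Pak4_KO and 23766, 22322 and 19144 TPM in WT libraries, which overlapped.

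**Figure D4:**
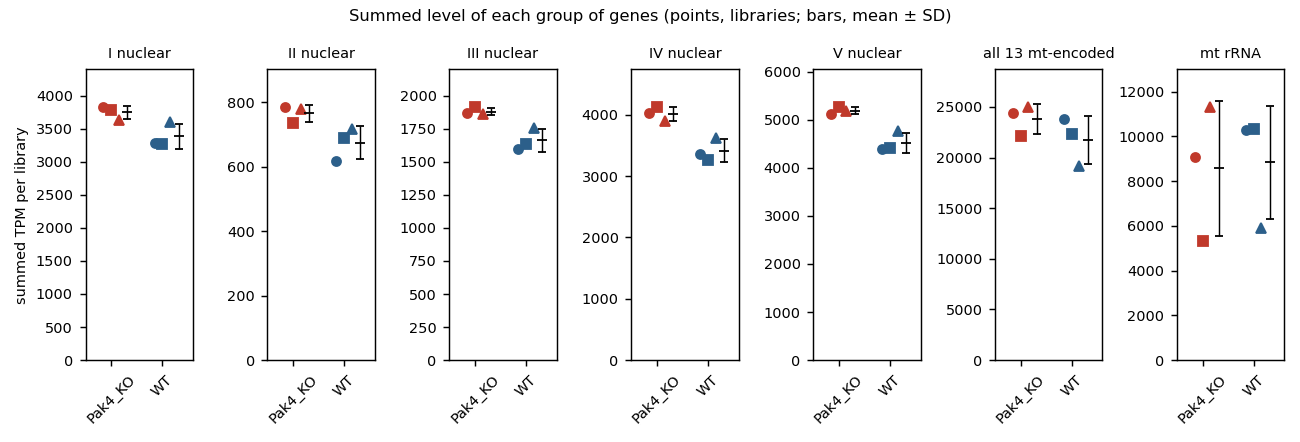
Summed TPM per library of the nuclear subunits of complexes I to V, of the 13 mitochondrially encoded genes and of the mitochondrial rRNAs, each panel on its own axis from 0, with Pak4_KO (red) left of WT (blue), 3 libraries each (circle, square and triangle for replicates 1, 2 and 3) and bars for the mean ± SD. The Pak4_KO points lie above the WT points in the 5 nuclear panels and overlap with them in the other two panels.

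How far the nuclear members stood apart depended on the scale. In TPM, 43 of the 101 tested members, all of them nuclear, were higher in every Pak4_KO library (42.6%, against 11.0% of all tested genes) and 0 were lower in every one (3.72% of all tested genes), where in TMM-scaled CPM the numbers were 15 and 1. Cox7a1, which passed the filter through the Pak4_KO group, is among the 43 and the 15. As a share of all reads, the nuclear members took 0.8595, 0.885 and 0.865% in Pak4_KO libraries, against 0.738, 0.777 and 0.811% in WT libraries, without overlap. After TMM scaling, the library medians of the nuclear members, as log2 CPM minus each gene's mean, were 0.07, 0.13 and -0.07 in Pak4_KO and -0.14, -0.05 and 0.05 in WT libraries, which overlapped. TMM factors ran from 0.984 to 1.08 in Pak4_KO and from 0.958 to 1.00 in WT libraries. The members share these libraries, and their counts are not independent of each other. The median of all tested genes was itself 0.06 on log2(TPM + 1) and 0.06 with library size alone, and the nuclear median exceeded it by 0.11 and 0.09, against 0.09 with TMM.

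**Figure D5:**
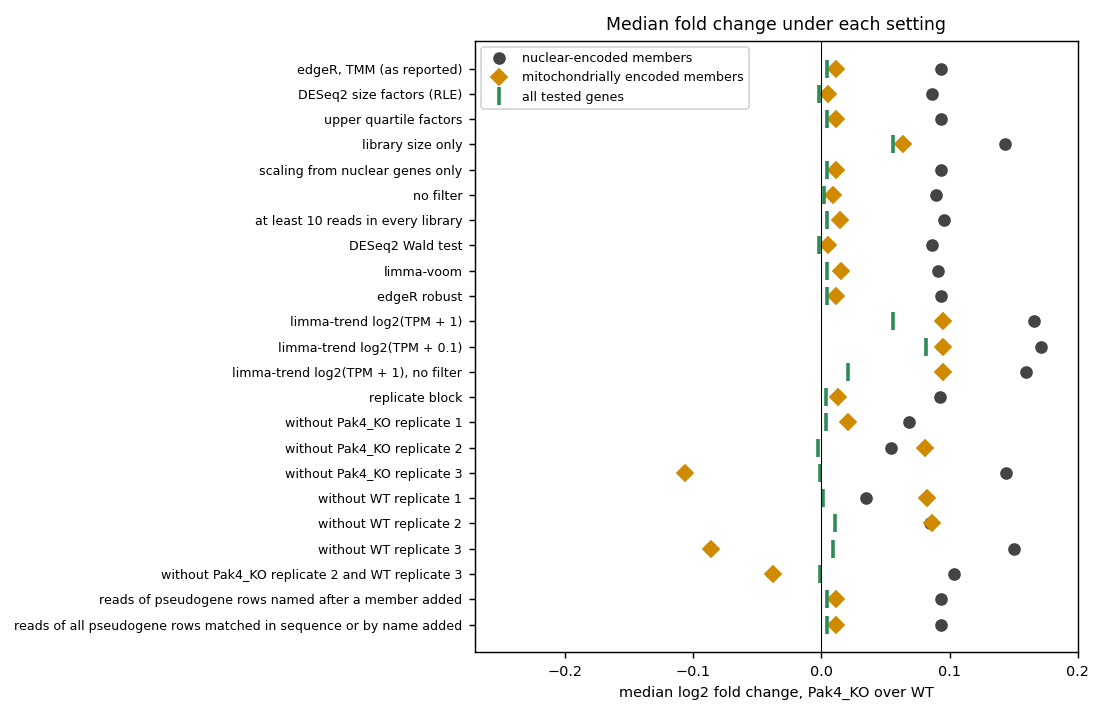
Median log2 fold change of Pak4_KO over WT (x axis) of nuclear-encoded members (grey circles), mitochondrially encoded members (orange diamonds) and all tested genes (green bars) as reported (top) and under each of the 22 alternatives. The nuclear median stays between 0.04 and 0.17, and the mitochondrial median is below 0 when Pak4_KO 3, WT 3 or both Pak4_KO 2 and WT 3 are left out.

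Related genes of the pathway were taken as 10 lists, and edgeR called 0 genes in each of them, against 0.469% of all tested genes. All 14 tricarboxylic acid cycle genes had a positive difference, with a median of 0.23; 6 were higher without overlap in CPM (7.35% of all tested genes) and 3 were higher at an unadjusted p under 0.05 (4.51%). Isocitrate dehydrogenase Idh2 had 73.5, 68.5 and 84.4 TPM in Pak4_KO and 45.3, 55.2 and 61.8 TPM in WT libraries, at 0.39 (adjusted p = 0.558). Idh3a, the NAD-linked enzyme, lay at 0.66 (adjusted p = 0.503) with overlap. Of 14 tested substrate and electron carriers 12 were positive, with a median of 0.14. The phosphate carrier Slc25a3 had 206, 197 and 224 TPM in Pak4_KO and 167, 163 and 154 TPM in WT libraries, at 0.29 (adjusted p = 0.517), cytochrome c (Cycs) lay at 0.30 and the aspartate-glutamate carrier Slc25a12 at 0.22.

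Of 13 genes for coenzyme Q synthesis 11 were positive, with a median of 0.16. An unadjusted p under 0.05 was reached by 2 higher genes, Coq8b and Coq3 (4.51% of all tested genes), and by 1 lower gene, Coq8a (3.69%). Without overlap in CPM, 3 were higher (7.35% of all tested genes) and 1 was lower (6.06%). Coq8b had 77.5, 72.5 and 90.1 TPM in Pak4_KO and 64.8, 52.8 and 53.6 TPM in WT libraries, at 0.42 (adjusted p = 0.316). Its relative Coq8a had 54.1, 35.5 and 35.1 TPM in Pak4_KO and 57.7, 53.2 and 74.9 TPM in WT libraries, at -0.56 (adjusted p = 0.429), with groups that overlapped in TPM and not in CPM. Coq3 lay at 0.36, with overlap in CPM. Of 29 tested complex III and IV assembly genes 20 were positive, with a median of 0.07. The 3 with the smallest p were Lyrm7, a complex III factor, at 0.71, the haem A farnesyltransferase Cox10 at 0.37, and Lrpprc, which stabilises mitochondrial mRNA, at 0.23. Other complex I and II assembly genes had a median of 0.03 over 14 genes (Foxred1 at 0.27, Tmem186 at 0.18, Lyrm2 at -0.23), and 5 ATP synthase assembly genes one of 0.08 (Tmem70 at 0.20, Atpaf1 at 0.16, Tmem242 at -0.12).

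Genes that maintain and transcribe mitochondrial DNA were positive in 14 of 17 cases, with a median of 0.11; the polymerase Polg lay at 0.23 without overlap, Tefm at 0.40 and Polrmt at 0.29. Of 16 tested mitochondrial RNA processing genes 12 were positive, but Hsd17b10, a subunit of mitochondrial RNase P, was lower in every Pak4_KO library. It had 97.1, 88.4 and 100.1 TPM in Pak4_KO and 121, 124 and 109 TPM in WT libraries, at -0.39 (SE 0.11, adjusted p = 0.315). Fastk lay at 0.30 and Fastkd3 at 0.32. Among 17 tested transcriptional controllers of mitochondrial biogenesis, 11 were positive and none was without overlap. The nuclear receptor Esrra had 12.1, 12.4 and 19.97 TPM in Pak4_KO and 7.702, 12.3 and 6.21 TPM in WT libraries, at 0.67 (adjusted p = 0.575). The coactivator Ppargc1a had 12.3, 3.27 and 3.17 TPM in Pak4_KO and 2.398, 3.98 and 1.08 TPM in WT libraries, at 1.25 (SE 0.62, adjusted p = 0.664), and the Pak4_KO 1 library stood above all others. Sirt1 lay at -0.35. Among 12 genes that shape the inner membrane, 9 were positive, with Phb2 at 0.22 and Opa1 at 0.22 without overlap and Phb at 0.19.

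Members with processed pseudogenes were checked because their reads could be shared with these copies. The copies came to 61 pseudogene entries, of which 54 matched 26 members in sequence and 7 carried only a member's name or description. Of the 61, 47 had any read, 14 were tested, and edgeR called 0, with 0 at an unadjusted p under 0.05. After Atp5g2, the largest share of a member's reads was 10.8% for Atp5l and 9.37% for Ndufs5, whose copy was matched by name only. Adding the reads of the copies to their members left 0 members called and the nuclear median at 0.09.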

How the data were processed

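From 1 µg of whole-liver RNA, libraries were made with a stranded kit that selects poly(A) RNA (labels' protocols). According to the submitters' processing notes, the build was mm10 and the tools included StringTie 2.1.3b and HISAT2 2.1.0, besides Bowtie2 2.3.4.1, bcl2fastq 2.20.0 and FastQC 0.11.7. How strand and multiple matches were handled is not given in the sources used here. Whole-number read counts per gene, without normalization, were deposited by the authors. FPKM, also deposited, were not used, and the deposited TPM served for levels and as an alternative scale. Values of 2 outnumber values of 1 in all 6 libraries, which 2 counted reads per sequenced pair would give. 

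The count test was that of edgeR 4.0.16 under R 4.3.3 (filterByExpr by group, TMM, quasi-likelihood F-test, two-sided, Benjamini-Hochberg over 16197 genes, called at an adjusted p under 0.05). Members were taken by symbol after the fit on all genes. The members and gene lists were chosen with earlier results of these data known. Named by rule were Pak4, the 13 mitochondrially encoded genes, the complex IV and c-ring isoform genes, members within 20 Mb of Pak4, and in each complex up to 6 members with the smallest p and the 2 most abundant, plus 3 genes per list; Ndufs8, Ndufa8, Ndufb4b, Ndufb4c, Cfd and the other fat markers were chosen after their values were seen. Some genes that the rule names are not reported here. Alternatives were other scalings and filters, DESeq2 1.42.0, limma 3.58.1 (voom, and log2(TPM + 1) or log2(TPM + 0.1)), edgeR with robust estimation, the replicate block, added pseudogene reads and left-out libraries. Pseudogenes were found with blastn 2.17.0 in GENCODE transcripts. Coordinates are from RefSeq GRCm38.p6, 1-based. The procedure was tested on simulated data. Replicates of a group differed by far more than sampling noise (chi-square per gene of 64.2 to 130 within groups), so none was counted as a repeat.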

Additional observations from a re-analysis of the deposited data

How the results depend on the processing

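No member was called under any of the 22 alternatives (other scalings and filters, DESeq2, limma, the replicate block, added pseudogene reads and left-out libraries); the smallest adjusted p of a member was 0.115, for Cox6b1 in DESeq2. The same-numbered libraries deviated together only weakly (correlations of 0.07, -0.20 and 0.15, against -0.24 to 0.19 for differently numbered ones). With 3 libraries a group, such correlations cannot show whether the samples were paired. With the replicate block 73 genes and 0 members were called. Genes called over the whole table were 44 with at least 10 reads in every library, 334 with DESeq2, 21 on log2(TPM + 1) with no filter, 21 without both Pak4_KO 2 and WT 3, and 37 to 81 with 1 library left out, against 76 as reported. Of 60 named members, 43 kept their sign in every alternative and 17 changed it in some. Ndufa6 (-0.0017 as reported) was 0.048 with library size only, 0.0014 with at least 10 reads in every library, 0.082 on log2(TPM + 1), with or without the filter, and on log2(TPM + 0.1), and 0.041 without both Pak4_KO 2 and WT 3. On the same library size and TPM settings, ATP6 (-0.0064) was 0.048 and 0.084, and Cox7b (-0.020) was 0.028 and 0.056. Without both Pak4_KO 2 and WT 3, ATP8 was -0.023, COX2 -0.064, COX3 -0.091 and Cox7a2l -0.064, each positive as reported. With 1 library left out, differences ran from -0.095 to 0.063 for Ndufa6, -0.16 to 0.12 for ATP6, -0.15 to 0.076 for Cox7b, -0.17 to 0.13 for ATP8, -0.086 to 0.10 for COX2, -0.045 to 0.051 for COX3 and -0.33 to 0.039 for CYTB. They ran from -0.43 to 0.027 for ND2, -0.29 to 0.078 for ND5, -0.11 to 0.31 for ND6, -0.035 to 0.23 for ND4L, -0.032 to 0.14 for Cox7a2 and -0.048 to 0.058 for Cox7a2l. The remaining ranges were -0.019 to 0.19 for Ndufa4, -0.00098 to 0.26 for Ndufaf1, -0.012 to 0.12 for Sdha (0.18 without both libraries) and -0.097 to 0.12 for Sdhb. The cause of these changes was not tested. With 3 samples a group, the 95% intervals bound the differences of most members to within 1.5-fold, and smaller ones than these intervals allow could not be told from 0. Depth limits Cox7a1, with 0 to 40 reads a library.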
